A study of Mus musculus with 12 samples.

Results

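All 9 arrays of mouse bone marrow cells carrying a CALM-AF10 fusion construct were set against the 3 arrays of cells carrying MIG, the empty retroviral vector. The 3 fusion constructs, with 3 arrays each, were CALM-AF10, CALM-AF10 ΔOM-LZ, which lacks the part of AF10 named OM-LZ, and CALM(400-648)+AF10 (677-758), a joining of 2 fragments here called the minimal fusion after the series title. These 12 arrays were the whole series. Genes were picked out when all 9 fusion arrays lay on one side of all 3 MIG arrays in log2 intensity, 273 of 19938 genes, or 1.37%. Because that rule used the measured values, the picked genes are described and their number supports nothing by itself.

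Every group shared the same handling. C57/BL6/C3H donors were given 5-fluorouracil, which enriches marrow for stem and progenitor cells. Their marrow was stimulated for 48 h, laid over irradiated (40 Gy) GFP+E86 virus producer cells with cytokines and 5 µg/ml protamine sulfate, and cultured another 48 h. Cells were sorted for GFP, the vector's marker, and RNA was taken 96 h after transduction. GFP sorting shows that a vector was present and not how much fusion protein was made. The transcripts of the constructs themselves were not measured here, since no probe set carried the symbol Picalm, the mouse gene for CALM. The probe set of Mllt10, the mouse gene for AF10, did not differ (log2 difference −0.14, SE 0.10, adjusted p = 0.837), and whether its probes match the construct was not tested. Replicates are labelled as biological, and what a replicate number shares is not stated.

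CALM is a clathrin assembly protein of endocytosis and AF10 is a chromatin factor that binds the histone methyltransferase DOT1L through its OM-LZ region. Their fusion occurs in acute leukaemias and is known for raising genes of the HOXA cluster, homeobox factors that keep blood progenitors immature. A separate programme enters the results below: in low oxygen the factor HIF-1 binds short DNA elements with the core ACGTG or GCGTG and raises genes of glycolysis, lactate export, collagen modification and mitochondrial turnover.

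The arrays were alike in scale. Array medians ran from 6.58 to 6.69 on the log2 scale, and each array's mean correlation with the other 11 ran from 0.9786 (MIG replicate 3) to 0.9888 (MIG replicate 1). The myeloid granule gene Mpo ranged from 12.10 to 13.38 in fusion arrays and stood at 13.18, 13.22 and 12.98 in MIG arrays, and the progenitor receptor gene Kit averaged 10.28 over the 12 arrays. In these bulk samples fewer cells of a type and less RNA per cell cannot be told apart.

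Of the 273 genes, 153 stood higher in the fusion arrays (0.767% of genes) and 120 stood lower (0.602%). The differences were small, with a median of 0.29 for the higher genes and −0.38 for the lower ones on the log2 scale. The median over all 19938 genes was 0.0083. No higher gene reached a log2 difference of 1, and 7 lower genes did. Large differences were mostly spread across both groups: 584 genes differed by 0.5 or more, and in 521 of them the fusion and MIG arrays overlapped. A limma test of the mean of the 3 constructs minus MIG, over 23410 probe sets, called 1 probe set at an adjusted p of 0.05 (0.00427% of those tested), and 1608 had an unadjusted p under 0.05.

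That probe set was that of Ankrd37, an ankyrin repeat gene raised by HIF-1 in low oxygen, which RefSeq places at chr8:45996908-46000414 on GRCm38.p6. Ankrd37 ranged from 6.47 to 6.87 (median 6.59) in the 9 fusion arrays, and stood at 7.77, 7.44 and 7.86 in the MIG arrays. The gap between the nearest arrays, 0.57, was the widest of any gene standing lower. Ankrd37 fell by 1.05 on the log2 scale (SE 0.11, 2.08-fold, adjusted p = 0.0408). The constructs gave −0.98 for CALM-AF10, −1.07 for CALM-AF10 ΔOM-LZ and −1.11 for the minimal fusion, and a moderated F test among them gave an unadjusted p of 0.658. With each construct tested against MIG by limma, Ankrd37 passed in the minimal fusion alone (adjusted p = 0.0383). It stood at 0.526 in CALM-AF10 and 0.234 in CALM-AF10 ΔOM-LZ. The call over the pooled fusions was narrow, and it was lost with the replicate number as a block. It passed in a limma fit without MIG replicate 2 (adjusted p = 0.0203) or without CALM-AF10 ΔOM-LZ replicate 2 (0.0451), and did not pass without any 1 of the other 10 arrays (0.0643 to 0.537), while the difference stayed between −1.18 and −0.97. The gene nearest to the threshold on the higher side was Zscan25, a zinc finger gene (log2 difference 0.50, SE 0.062, adjusted p = 0.0813). It stood at 8.11 to 8.31 (median 8.25) in fusion arrays and 7.74, 7.76 and 7.70 in MIG arrays. Tested by limma construct by construct, Zscan25 passed in the minimal fusion alone (adjusted p = 0.0484). The values were 0.543 in CALM-AF10 and 0.643 in CALM-AF10 ΔOM-LZ.

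**Figure D1:**
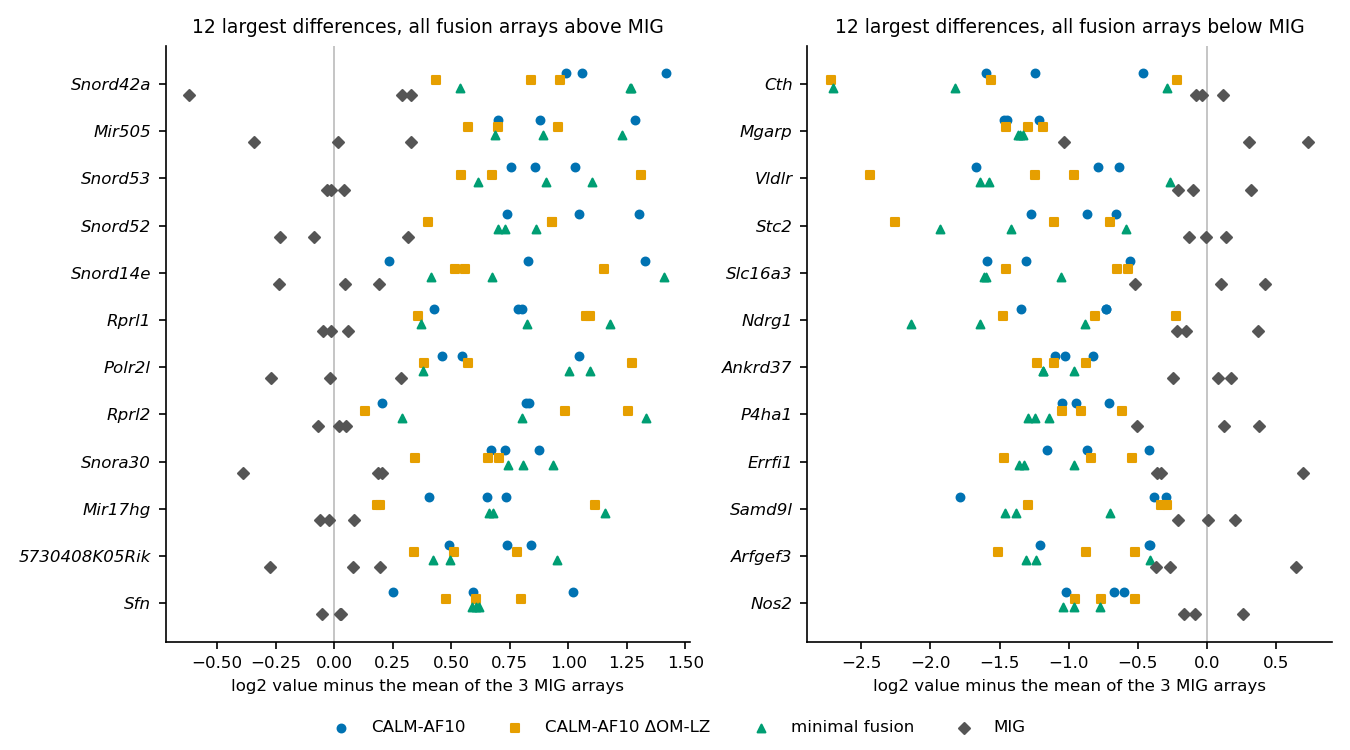
The 12 largest differences on each side among genes whose fusion and MIG arrays do not overlap. Each point is 1 array, given as its log2 value minus the mean of the 3 MIG arrays, with construct by colour and shape. For Ndrg1 the nearest fusion array and MIG array lie 0.0029 apart, and for Ankrd37 0.57 apart.

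The genes standing lower in every fusion array included a run of low-oxygen responders. To show the element that HIF-1 binds in low oxygen, 250 bases upstream of a transcript start are given for the 3 lower members of the low-oxygen list with the widest gaps between fusion and MIG arrays, from RefSeq on build GRCm38.p6. The start is the one its promoter table lists for each gene. For Ankrd37 it lies within the gene's span, so that all 250 bases do too, for P4ha1 99 of the 250 bases lie within the span, and for Stc2 0. Capitals mark ACGTG or GCGTG on either strand, and neighbouring matches can overlap.
Ankrd37, chr8:45999851-46000100, minus strand: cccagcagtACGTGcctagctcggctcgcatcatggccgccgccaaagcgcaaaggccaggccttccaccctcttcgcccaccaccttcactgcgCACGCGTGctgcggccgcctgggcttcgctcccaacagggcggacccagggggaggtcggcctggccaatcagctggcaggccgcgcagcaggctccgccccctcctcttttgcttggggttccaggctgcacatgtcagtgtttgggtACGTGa
Stc2, chr11:31370062-31370311, minus strand: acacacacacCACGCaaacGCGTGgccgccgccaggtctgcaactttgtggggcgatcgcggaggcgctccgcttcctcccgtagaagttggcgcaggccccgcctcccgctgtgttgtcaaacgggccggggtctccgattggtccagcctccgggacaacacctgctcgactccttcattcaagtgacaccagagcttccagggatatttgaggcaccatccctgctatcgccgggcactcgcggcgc
P4ha1, chr10:59323046-59323295, plus strand: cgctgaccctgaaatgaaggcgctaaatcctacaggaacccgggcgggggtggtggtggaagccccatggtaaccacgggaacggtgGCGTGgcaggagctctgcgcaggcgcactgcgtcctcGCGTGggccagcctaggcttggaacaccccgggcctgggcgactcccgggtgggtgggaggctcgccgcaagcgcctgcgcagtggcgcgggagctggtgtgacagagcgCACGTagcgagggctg

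Ankrd37 held 2 matches to ACGTG and 2 to GCGTG, P4ha1 held 1 and 2, and Stc2 held 0 and 2. Either core occurred in the 250 bases before 38.6% of the 32851 start sites in the table, with 16.6% holding ACGTG and 28.2% holding GCGTG. Of the 31 measured members of the low-oxygen list, 26 had a start site in the table and 22 of these held either core. The list was drawn up from known low-oxygen responders, with earlier results of these data known, so its counts are a description. A match describes the sequence and shows no binding.

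Of 31 measured low-oxygen genes outside glycolysis, 30 had a mean below MIG and 26 were below it in each of the 3 constructs. Their median log2 difference was −0.50, against 0.0083 over all genes. By construct it was −0.38 for CALM-AF10, −0.51 for CALM-AF10 ΔOM-LZ and −0.57 for the minimal fusion, 3 values that share the MIG arrays. In 7 of the 31 every fusion array lay below every MIG array, and in 0 did every fusion array lie above, beside 0.602% and 0.767% of all genes. Of the list, 1 member, Ankrd37, passed the limma test, and the members below are given as values.

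Among the 7 genes fully below MIG, 2 modify collagen. P4ha1, a subunit of prolyl hydroxylase, ranged from 9.56 to 10.24 (median 9.81) in fusion arrays and stood at 10.98, 10.35 and 11.23 in MIG arrays (log2 difference −0.995, SE 0.17, adjusted p = 0.251). The groups did not overlap, with MIG replicate 2 nearest to the fusions. Plod1, a lysyl hydroxylase, ranged from 8.90 to 9.67 (median 9.34) in fusion arrays and stood at 9.78, 9.69 and 9.83 in MIG arrays (−0.50, SE 0.12, adjusted p = 0.432).

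The others have roles in secretion, protein folding, mitochondria and stress. Stc2, a secreted glycoprotein gene, ranged from 8.02 to 9.69 (median 9.17) in fusion arrays and stood at 10.26, 10.15 and 10.41 in MIG arrays (−1.20, SE 0.32, adjusted p = 0.502). Its fusion arrays were widely spread while its MIG arrays were close together. Ero1a, an oxidase that helps proteins fold in the endoplasmic reticulum, ranged from 11.58 to 12.62 (median 12.19) in fusion arrays and stood at 12.64, 12.64 and 13.17 in MIG arrays (−0.69, SE 0.20, adjusted p = 0.508). Bnip3l, which marks mitochondria for removal, ranged from 12.12 to 12.36 (median 12.24) in fusion arrays and stood at 12.52, 12.36 and 12.61 in MIG arrays (−0.27, SE 0.070, adjusted p = 0.486). For Bnip3l the nearest arrays of the groups were 0.0019 apart at the probe set used. Its other probe set also lay fully below MIG (−0.33, adjusted p = 0.417). Ndrg1, a stress-responsive gene, ranged from 9.05 to 10.96 (median 10.31) in fusion arrays and stood at 10.97, 11.03 and 11.55 in MIG arrays (−1.11, SE 0.30, adjusted p = 0.495).

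The exceptions in the list were few. Higd1a, a mitochondrial gene of the same response, was the 1 member with a higher mean (0.26, adjusted p = 0.789), and Cited2, a HIF-1 antagonist, lay near 0 (−0.018, adjusted p = 0.992; its sign turned when 1 array or the minimal fusion was left out). Outside the list, Mgarp, a mitochondrial gene that is also raised in low oxygen, ranged from 4.64 to 4.92 (median 4.75) in fusion arrays and stood at 6.41, 5.08 and 6.84 in MIG arrays (−1.35, SE 0.27, adjusted p = 0.336). Its fusion arrays were close together and MIG replicate 2 lay just above them.

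Glycolysis and lactate export showed the same direction with more overlap. Of 21 measured genes 17 had a mean below MIG, 16 were below it in each construct, and the median log2 difference was −0.31. In 2 of the 21 all fusion arrays lay below all MIG arrays and in 0 above, beside 0.602% and 0.767% of all genes, and 0 passed the limma test. Pgk1, phosphoglycerate kinase, ranged from 11.73 to 12.27 (median 11.97) in fusion arrays and stood at 12.66, 12.29 and 12.69 in MIG arrays (−0.60, SE 0.13, adjusted p = 0.351). Its nearest arrays were 0.011 apart. A further probe set of Pgk1 overlapped between the groups (−0.58, adjusted p = 0.351), and another held the same values as the one used. Slc16a3, the lactate exporter, ranged from 9.07 to 10.13 (median 9.38) in fusion arrays and stood at 11.11, 10.17 and 10.79 in MIG arrays (−1.16, SE 0.27, adjusted p = 0.432). The members with the highest statistics were Hk3, a hexokinase (0.31, adjusted p = 0.838), and Pfkfb4, a regulator of glycolytic flux (0.14, adjusted p = 0.936).

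**Figure D2:**
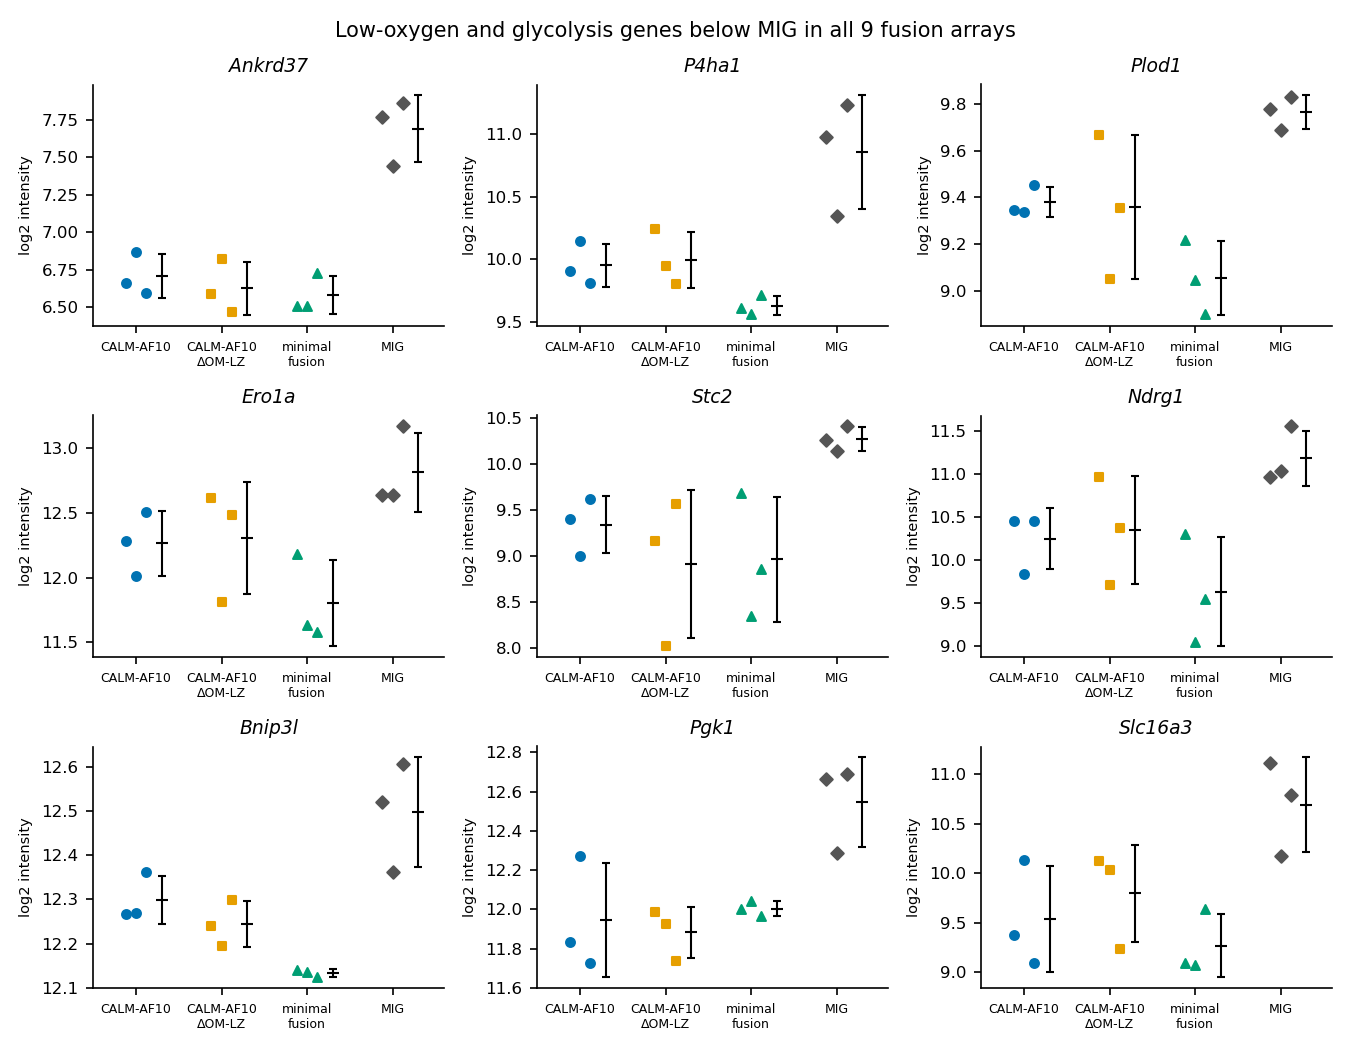
Log2 intensity by array for the 7 low-oxygen genes and the 2 glycolysis genes that stood below MIG in all 9 fusion arrays. Coloured points are arrays, and the black bar beside them is the group mean with its SD (n = 3). MIG replicate 2, the middle MIG point, is the lowest MIG array for each of them but Ndrg1.

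MIG replicate 2 decided how many of these genes were non-overlapping. Each gene was set to a mean of 0 over the 12 arrays, and a list's members were averaged to a score per array. This score ran from −0.25 to −0.012 (median −0.17) in fusion arrays for the low-oxygen list, and was 0.45, 0.058 and 0.72 in MIG arrays. For glycolysis the scores ran from −0.29 to 0.12 (median −0.13) in fusion arrays and were 0.49, −0.045 and 0.50 in MIG arrays, so that the groups overlapped. Without MIG replicate 2, 19 low-oxygen and 10 glycolysis genes had all fusion arrays below the remaining MIG arrays. Of all 19938 genes 447 did so, against 120 with every array kept. The limma fit without MIG replicate 2 called 9 probe sets in place of 1, Mgarp, P4ha1 and Ankrd37 among them. Without CALM-AF10 ΔOM-LZ replicate 1 the glycolysis count was 5, beside 217 of all genes. With each array centred on its median, 4 of the low-oxygen genes (Ankrd37, Stc2, P4ha1 and Ndrg1) and 1 of the glycolysis genes (Pgk1) stayed fully below MIG, and the list medians were −0.52 and −0.33. With that centring 123 of all genes stood fully below MIG. Under quantile normalization 6 low-oxygen and 2 glycolysis genes did so, beside 166 of all genes, and Ndrg1 did not. Ankrd37, Stc2 and P4ha1 thus kept their place under both scalings, as did Pgk1.

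Markers of other cell types varied from array to array more than between the groups. Of 18 measured megakaryocyte and platelet genes 17 had a mean below MIG, with a median of −0.60. Fully below MIG lay 0 of them, beside 0.602% of all genes. The scores of that list ran from −0.76 to 0.79 (median −0.15) in fusion arrays and were −0.15, 0.76 and 0.78 in MIG arrays. Its lowest members by statistic were Gp9 (−0.93, adjusted p = 0.544), a chain of the platelet von Willebrand factor receptor, and Treml1 (−0.46, adjusted p = 0.557), a platelet granule receptor. Nbeal2, needed for platelet granules, went the other way, at 9.42 to 9.77 (median 9.52) in fusion arrays and 9.35, 9.24 and 9.26 in MIG arrays (0.30, adjusted p = 0.508). Without MIG replicate 1 the list median was −0.95, and 4 of its genes lay fully below MIG, beside 407 of all genes. What part these markers have in the low-oxygen values was not tested.

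Mast cell genes had a median of −0.48, with 18 of 20 means below MIG and 0 fully below, beside 0.602% of all genes. Their scores ran from −1.02 to 1.10 (median −0.30) in fusion arrays and were −0.31, 0.091 and 1.67 in MIG arrays. The proteases Mcpt2 (−1.76, adjusted p = 0.602), Mcpt1 (0.16, adjusted p = 0.934) and Prss34 (0.42, adjusted p = 0.868) and the signalling regulator Rgs13 (−0.37, adjusted p = 0.508) overlapped between the groups. Mcpt1 and Mcpt2 are related genes on chromosome 14, and whether their probes part them fully was not tested. In fusion arrays Mcpt1 ranged from 4.47 to 5.70 and Mcpt2 from 5.23 to 9.99. Without MIG replicate 3 the median was 0.028. Monocyte and macrophage genes had a median of −0.11, which was 0.25 without MIG replicate 2 and −0.54 without MIG replicate 3. Of its 33 measured genes, 1 lay fully below MIG and 0 fully above, beside 0.602% and 0.767% of all genes. F13a1, a coagulation factor chain (−1.06, adjusted p = 0.603), Ccl3, a chemokine (0.24, adjusted p = 0.889), and the complement gene C1qa (0.083, adjusted p = 0.907) overlapped.

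The 1 fully lower monocyte and macrophage gene was Nos2, the inducible nitric oxide synthase of activated macrophages. Nos2 ranged from 5.96 to 6.48 (median 6.23) in fusion arrays and stood at 7.26, 6.91 and 6.84 in MIG arrays (−0.81, SE 0.13, adjusted p = 0.251). Its gap of 0.36 was narrower only than those of Ankrd37 and Stc2 among the lower genes. The other lower genes with wide gaps were Rnf19a, a ubiquitin ligase (−0.54), Ttc25, a ciliary gene (−0.38), and Ppp1r3b, which directs a phosphatase to glycogen (−0.46).

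**Figure D3:**
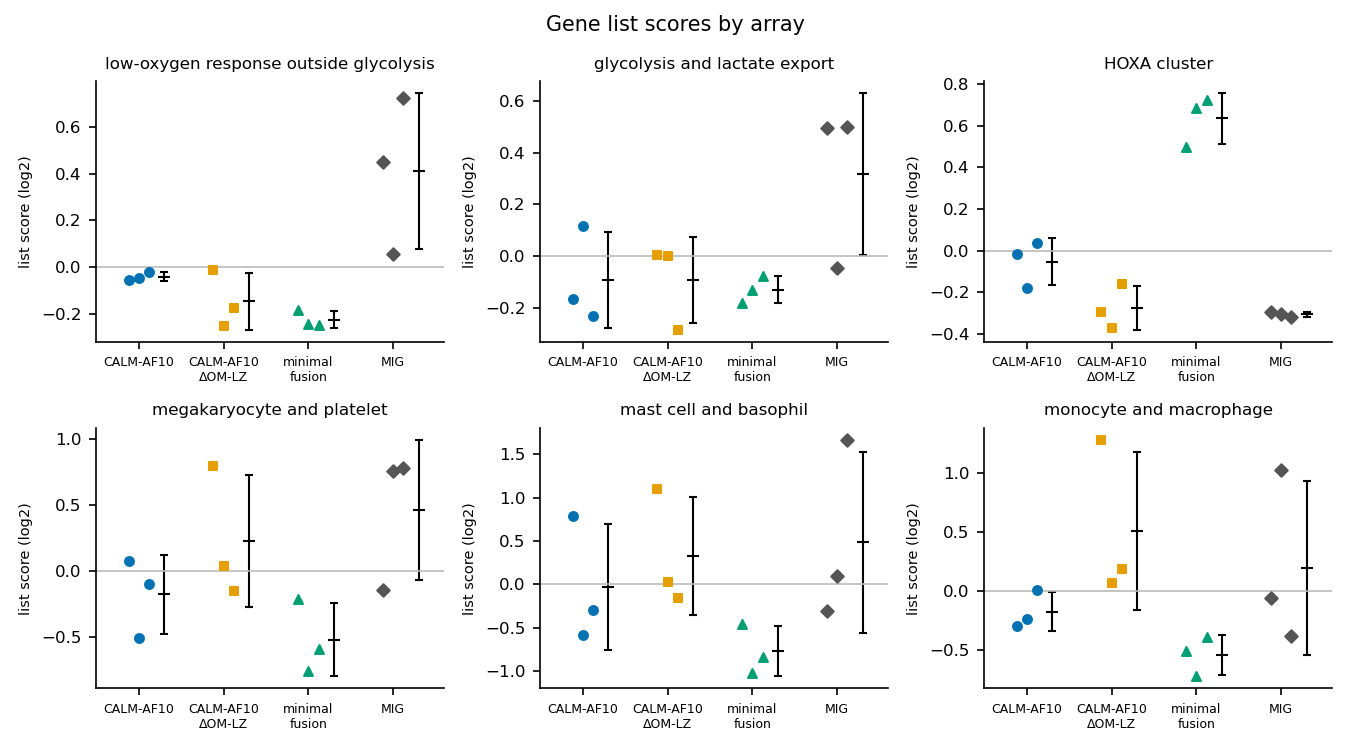
List scores by array for 6 gene lists. Coloured points are arrays, and the black bar is the group mean with its SD (n = 3). Fusion arrays lie below all MIG arrays for the low-oxygen list alone among the 6.

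Among non-overlapping genes the largest difference on the lower side was that of Cth, an enzyme of the pathway making cysteine. Cth ranged from 7.29 to 9.79 (median 8.44) in fusion arrays and stood at 9.97, 10.13 and 9.93 in MIG arrays (−1.40, SE 0.53, adjusted p = 0.619). Its fusion arrays were widely spread within CALM-AF10 ΔOM-LZ and the minimal fusion (SD 1.25 and 1.22) and its MIG arrays were close together (SD 0.11). Vldlr, a lipoprotein receptor, ranged from 7.57 to 9.74 (median 8.77) in fusion arrays and stood at 9.91, 9.80 and 10.33 in MIG arrays (−1.25, SE 0.37, adjusted p = 0.508). The remaining large differences were Errfi1, an inhibitor of EGF receptor signalling (−0.99), Samd9l, an interferon-inducible gene (−0.88), and Arfgef3 (−0.88), with adjusted p of 0.495, 0.611 and 0.557. Samd9l was the 1 fully lower gene among 34 interferon response genes, beside 0.602% of all genes. The median of that list was −0.15.

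The higher side was led by small RNA genes. Of the 12 largest differences 5 were snoRNA genes, small nucleolar RNAs that guide chemical modification of ribosomal RNA and are mostly cut from introns of other genes. Snord42a ranged from 7.60 to 8.59 (median 8.16) in fusion arrays and stood at 7.46, 6.55 and 7.50 in MIG arrays (0.98, SE 0.23, adjusted p = 0.432). Snord53 had the widest gap of any higher gene, 0.50, with 10.89 to 11.66 (median 11.21) in fusion arrays and 10.34, 10.40 and 10.32 in MIG arrays (0.87, SE 0.15, adjusted p = 0.251). Snord52 (0.85), Snord14e (0.79) and Snora30 (0.72, the same at both of its probe sets) had adjusted p of 0.251, 0.542 and 0.251.

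As a class, picked after these values were seen, the 54 measured snoRNA genes had 50 means above MIG and a median of 0.47. In 14 of the 54, or 25.9%, all fusion arrays lay above all MIG arrays, and in 0 did all lie below, beside 0.767% and 0.602% of all genes. Under median centring 14 and under quantile normalization 15 lay fully above MIG, beside 128 and 191 of all genes. The count of means above MIG stayed at 50. Averaged over the 54 genes, the fusion arrays stood between −0.14 and 0.26 (median 0.18) and the MIG arrays at −0.29, −0.36 and −0.30, relative to the 12-array mean. The MIG arrays lay close together and below all others. CALM-AF10 ΔOM-LZ replicates 1 and 3 were the lowest fusion arrays.

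The genes that enclose these snoRNA genes stood near 0. RefSeq spans placed 52 of the 54 within a protein-coding or long noncoding gene, and for 31 at least 1 enclosing gene was measured, 27 genes in all. Their log2 differences ran from −0.17 to 0.32, with a median of 0.0034. Of the 27, 0 were non-overlapping, beside 1.37% of all genes. Rpl23a, a ribosomal protein gene around Snord42a, differed by −0.019, Wdr43, a ribosome biogenesis gene around Snord53, by −0.077, and Hspa8, a chaperone gene around Snord14e, by 0.16. The largest was that of Gas5, a snoRNA host transcript around Snord47 (0.32 for Gas5 and 0.65 for Snord47). Whether a snoRNA probe set reads the finished snoRNA or its precursor was not tested, and strand was not used to match spans.

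**Figure D4:**
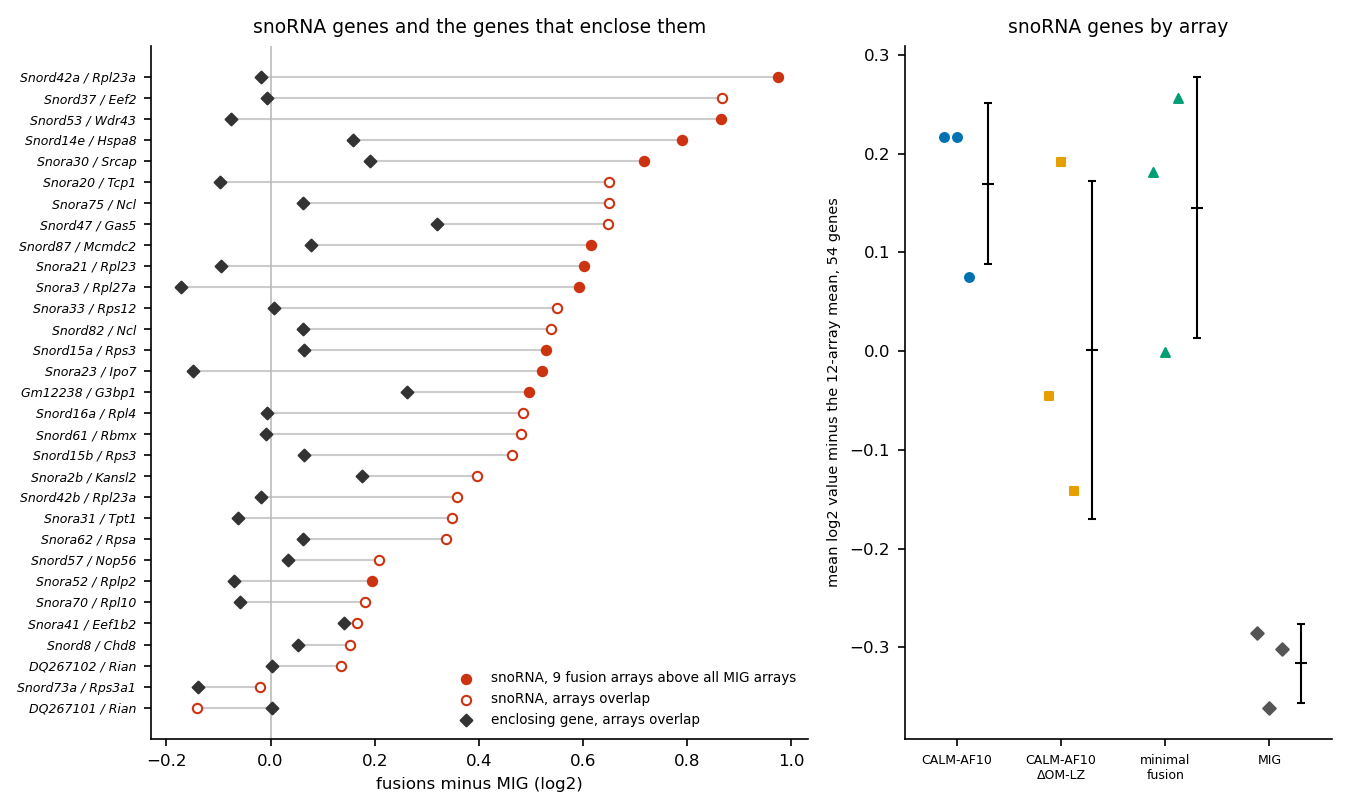
On the left, the log2 difference of fusions minus MIG for 31 snoRNA genes (circles, filled where all fusion arrays lay above all MIG arrays) and for the gene enclosing each (diamonds), named on the axis. On the right, the mean over 54 snoRNA genes by array with the group mean and SD (n = 3), where the 9 fusion arrays lie above the 3 MIG arrays.

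Other noncoding genes stood among the largest differences. Mir505, a microRNA gene, ranged from 8.84 to 9.56 (median 9.15) in fusion arrays and stood at 8.60, 8.29 and 7.93 in MIG arrays (0.88, SE 0.17, adjusted p = 0.277). Of 297 measured microRNA genes 2, Mir505 and Mir665, stood fully higher (0.673%) and 0 fully lower, close to the 0.767% and 0.602% of all genes. The mature arms of Mir505 are given because it led the microRNA genes, with the seed (bases 2 to 8) in capitals, from RefSeq on GRCm38.p6. The probe set names the gene and not an arm.
mmu-miR-505-3p, chrX:60394416-60394437, minus strand: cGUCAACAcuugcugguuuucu
mmu-miR-505-5p, chrX:60394451-60394473, minus strand: gGGAGCCAggaaguauugauguu

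Mir17hg, the host transcript of the Mir17 microRNA cluster, ranged from 6.52 to 7.49 (median 6.99) in fusion arrays and stood at 6.42, 6.31 and 6.27 in MIG arrays (0.64, SE 0.19, adjusted p = 0.508). Rprl1 (0.77) and Rprl2 (0.74), RNase P RNA-like genes, had adjusted p of 0.457 and 0.568 and are near copies of one another. Among protein-coding genes the largest were Polr2l, a subunit shared by the nuclear RNA polymerases (0.75, adjusted p = 0.508, with its second probe set at 0.72), and Sfn, an adaptor gene induced by p53 (0.62, adjusted p = 0.351). The other probe set of Sfn overlapped between the groups (0.41, adjusted p = 0.542). The unnamed long noncoding gene 5730408K05Rik differed by 0.62. Higher genes with wide gaps also included Psmg4, a proteasome assembly factor (0.60, SE 0.090), and AI837181 (0.39, SE 0.072), both with an adjusted p of 0.251.

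HOXA genes differed among the constructs. All 10 measured HOXA members had a mean above MIG over the 3 fusions, with a median of 0.44. Yet 0 were non-overlapping, beside 1.37% of all genes. The medians by construct were 0.23 for CALM-AF10, 0.0077 for CALM-AF10 ΔOM-LZ and 1.16 for the minimal fusion. The moderated F test among the 3 fusions called 3 of 23410 probe sets (0.0128%), all of them HOXA genes. Hoxa9 stood at 9.03, 8.94 and 8.95 in CALM-AF10 arrays, 8.64, 8.57 and 8.63 in CALM-AF10 ΔOM-LZ arrays, 9.94, 10.10 and 10.13 in minimal fusion arrays, and 8.75, 8.44 and 8.81 in MIG arrays. The minimal fusion arrays lay above all others, and the CALM-AF10 ΔOM-LZ arrays lay among the MIG arrays. Hoxa6 stood at 7.90, 7.46 and 7.77 in CALM-AF10 arrays, 7.25, 6.94 and 7.38 in CALM-AF10 ΔOM-LZ arrays, 8.58, 9.04 and 8.79 in minimal fusion arrays, and 7.35, 7.04 and 7.18 in MIG arrays. CALM-AF10 arrays of Hoxa6 lay between the minimal fusion and MIG arrays, and those of CALM-AF10 ΔOM-LZ reached both above and below MIG.

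The adjusted p among fusions was 0.00242 for Hoxa9, 0.0366 for Hoxa6 and 0.0445 for Hoxa10. Hoxa9 passed without any 1 of the 12 arrays (0.000779 to 0.0417). Hoxa6 passed only without CALM-AF10 replicate 2 (0.0296) and Hoxa10 only without MIG replicate 3 (0.0482), while without any 1 of the other 11 arrays they stood at 0.0512 to 0.284 and 0.0505 to 0.284. With each array centred on its median, Hoxa9 alone passed (0.00733), as it did with the replicate number as a block (0.0185, with Hoxa6 at 0.116 and Hoxa10 at 0.218). Without CALM-AF10 ΔOM-LZ the adjusted p of Hoxa9 was 0.158, and without the minimal fusion it was 1. Against MIG over all 3 fusions, Hoxa9 differed by 0.55 (SE 0.087, adjusted p = 0.251), Hoxa6 by 0.71 (SE 0.13, adjusted p = 0.251) and Hoxa10 by 0.36 (SE 0.12, adjusted p = 0.568). The others ran from 0.17 for Hoxa11 to 0.58 for Hoxa5, with Hoxa3 at 0.56, Hoxa7 at 0.53, Hoxa4 at 0.24, Hoxa13 at 0.19 and Hoxa2 at 0.19. With each construct tested against MIG by limma, 8 of 23410 probe sets were called for the minimal fusion. For CALM-AF10 and for CALM-AF10 ΔOM-LZ 0 were called. In the minimal fusion the adjusted p was 0.00132 for Hoxa9, 0.0111 for Hoxa6, 0.0383 for Hoxa10, 0.0383 for Hoxa3 and 0.052 for Hoxa5.

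**Figure D5:**
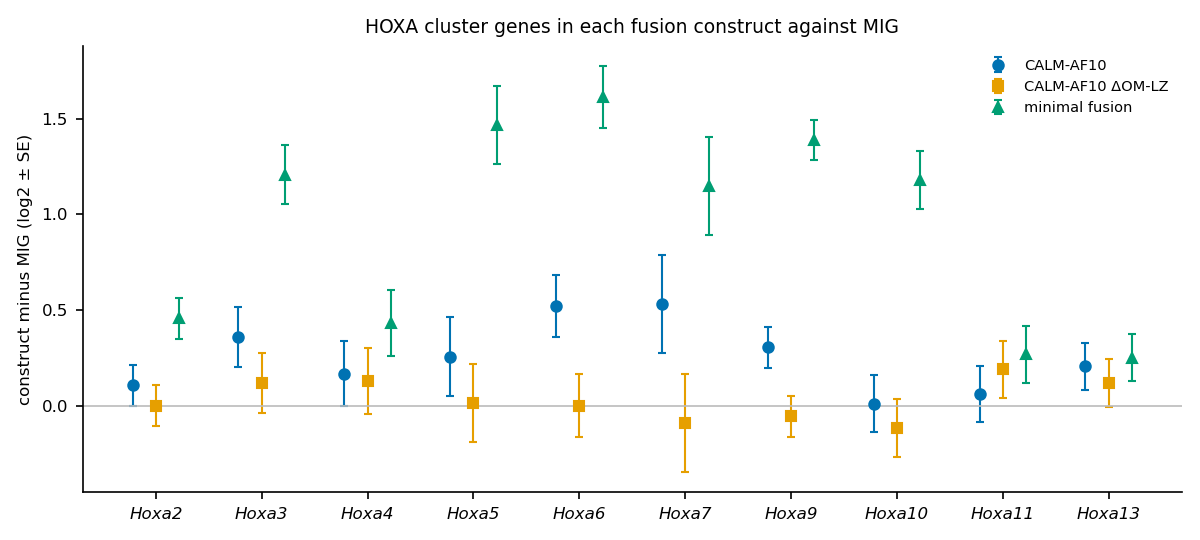
Log2 difference of each fusion construct minus MIG for the 10 measured HOXA genes, with the limma SE as bars. The 3 constructs share the same 3 MIG arrays. CALM-AF10 ΔOM-LZ points lie between −0.12 and 0.19, and those of the minimal fusion between 0.25 and 1.61.

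Of the 273 genes 7 (2.56%) had an unadjusted F p under 0.05, beside 2.66% of all genes, and 0 passed after adjustment. The rule that chose them used the same 9 fusion arrays, so these counts are a description. The smallest was for Zfp36l2, an mRNA decay factor of blood stem cells, at an unadjusted p of 0.00589. Zfp36l2 differed from MIG by 0.40 in CALM-AF10, 0.22 in CALM-AF10 ΔOM-LZ and 0.57 in the minimal fusion, and all 9 fusion arrays (11.85 to 12.28, median 12.04) lay above the MIG arrays (11.58, 11.64 and 11.75). Rangrf, a factor of the Ran pathway (0.76, 0.29 and 0.72), and Znrf3, a ligase acting on Wnt receptors (0.34, 0.071 and 0.20), had unadjusted p of 0.00908 and 0.0486 in the same order of constructs. On the lower side, Elovl7, a fatty acid elongase (−0.71, −0.46 and −1.04), Ostf1 (−0.41, −0.24 and −0.54) and Daam1, an actin-nucleating formin (−0.44, −0.19 and −0.64), had unadjusted p of 0.0208, 0.0354 and 0.0379. For each of these 6 genes CALM-AF10 ΔOM-LZ gave the smallest difference.

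Leukaemia-linked regulators and stem cell markers had 0 non-overlapping members each, beside 1.37% of all genes. Their medians were 0.091 over 24 genes, with 18 means above MIG, and 0.00074 over 21 genes, with 11 above. The members with the highest and lowest statistics were, among regulators, Skida1 (0.56, adjusted p = 0.457), Nkx2-3, a homeobox gene (0.46, adjusted p = 0.495), Id2 (−0.82, adjusted p = 0.786), an inhibitor of DNA binding, and Bcl2, a survival factor (−0.52, adjusted p = 0.81). Among stem cell markers they were Cd27, a costimulatory receptor (1.07, adjusted p = 0.251), Ifitm1 (0.11, adjusted p = 0.834), the angiopoietin receptor gene Tek (−0.88, adjusted p = 0.72) and Thy1 (−0.33, adjusted p = 0.667). Cd27 ranged from 7.95 to 10.36 (median 9.09) in fusion arrays and stood at 8.50, 8.03 and 7.65 in MIG arrays. All 3 CALM-AF10 ΔOM-LZ arrays lay inside the MIG range, and all CALM-AF10 and all minimal fusion arrays lay above it. Cd27 differed from MIG by 1.10 in CALM-AF10, 0.20 in CALM-AF10 ΔOM-LZ and 1.93 in the minimal fusion. In the order CALM-AF10, CALM-AF10 ΔOM-LZ and minimal fusion, Skida1 differed by 0.25, 0.26 and 1.17, and Nkx2-3 by 0.24, 0.040 and 1.11. When each construct was tested against MIG with limma, the minimal fusion passed for Cd27 (adjusted p = 0.0359) and Nkx2-3 (0.0451). It did not pass for Skida1 (0.0594), and CALM-AF10 and CALM-AF10 ΔOM-LZ passed for none of them.

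Some lists outside blood cell identity held 1 non-overlapping member, beside 0.767% of all genes fully higher and 0.602% fully lower. Ring1, a polycomb subunit, stood at 7.95 to 8.10 (median 8.01) in fusion arrays and 7.83, 7.79 and 7.82 in MIG arrays (0.21, adjusted p = 0.532), and was 1 of 26 polycomb genes. Itsn2, an endocytic scaffold and partner of the pathway CALM serves, stood at 9.39 to 9.72 (median 9.59) in fusion arrays and 9.86, 9.76 and 9.97 in MIG arrays (−0.29, adjusted p = 0.508), and was 1 of 33 clathrin endocytosis genes. Dot1l overlapped (0.22, SE 0.11, adjusted p = 0.754).

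Some genes lay close to the edge of the rule. Just inside it, among genes differing by at least 0.5, were U2af1l4, a splicing factor (gap 0.0080), Snora21 (0.033) and Ndufa3, a respiratory chain subunit (0.041), on the higher side, and 4930430F08Rik (0.00065), Ndrg1 (0.0029) and Fmnl2, a formin (0.0043), on the lower side. Just outside, overlapping by 0.0026 to 0.014, were Snora69, Hoxa3 and Snord73b on the higher side and Fbxl21, Ndc80, a kinetochore gene, and Ccng2, a cyclin, on the lower side. Fbxl21 stood at 5.94, 5.94 and 7.82 in MIG arrays, so that its difference rested largely on MIG replicate 3. Of the 273 genes, 163 kept their side under both median centring and quantile normalization, 87 higher and 76 lower. Leaving out an array can only add genes: without MIG replicate 1, 2 or 3 the counts were 904, 554 and 245 higher and 407, 447 and 267 lower, and without CALM-AF10 ΔOM-LZ replicate 1 they were 272 and 217. For the 30 further probe sets of these genes, 28 pointed the same way and 14 were non-overlapping too.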

How the data were processed

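The authors deposited log2 intensities, 1 value for each probe set on each array. The submitters' processing notes name Affymetrix Expression Console. Its version, summarization and normalization are not given by the sources at hand, which leaves the scaling between arrays unknown. Nothing was renormalized. Of 35556 probe sets, 23410 carried gene symbols in GEO's platform annotation (21789 with 1, 1621 with several) and were tested; 12146 without were tested apart. The brightest probe set with 1 symbol stood for a gene (19938 genes).

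limma 3.58.1 in R 4.3.3 (lmFit, eBayes) fitted 1 mean per construct to the 12 arrays, with 8 residual degrees of freedom. The mean of the 3 fusions minus MIG was tested, as was each construct minus MIG, and a moderated F test compared the fusions. Two-sided p values were adjusted over the 23410 probe sets (Benjamini-Hochberg, threshold 0.05), and the fit was tested on simulated data. The number of arrays, 3 a group, limits the precision. Same-numbered fusion and MIG arrays did not deviate together (r = −0.551 to 0.0922), and no block was used in the fit reported. Those of different fusions did so in part (r = −0.269 to 0.789). Of 9 fusion arrays, 8 were closest to their own number in another construct. The fit treats the fusion arrays as independent, which they may not be. With a replicate block Ankrd37, Hoxa6 and Hoxa10 did not pass.

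Named genes were every called gene, the 12 largest differences and 6 widest gaps on each side among non-overlapping genes, the non-overlapping and 2 highest and 2 lowest members of each list discussed, HOXA genes, Picalm, Mllt10 and Dot1l, the 3 genes inside and outside the rule on each side, and up to 6 with the smallest p among fusions. Genes, 31 lists and tests were chosen with earlier results of these data known. Alternatives were 2 scalings, a filter on dim probe sets, other variance models, a replicate block, and leaving out each array or construct.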

Additional observations from a re-analysis of the deposited data

Results flagged for a closer look

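Among probe sets with no gene symbol, which the comparisons above leave out, 2 of 12146 passed the limma test of fusions minus MIG when tested apart, and 1168 had an unadjusted p under 0.05. Probe set 10468877 ranged from 4.43 to 5.00 (median 4.57) in the 9 fusion arrays and stood at 9.05, 8.94 and 9.43 in the MIG arrays, a log2 difference of −4.516 (SE 0.125, 22.9-fold, adjusted p = 2.96e-08). The constructs gave −4.64, −4.35 and −4.56 for CALM-AF10, CALM-AF10 ΔOM-LZ and the minimal fusion. No gene with a symbol differed by as much, and the annotation used here names no gene for it. Probe set 10340369 ranged from 7.25 to 9.27 (median 7.86) in fusion arrays and stood at 7.20, 7.13 and 7.14 in MIG arrays, a difference of 0.997 (SE 0.119, adjusted p = 0.0347), with the minimal fusion at 1.95 and CALM-AF10 and CALM-AF10 ΔOM-LZ at 0.66 and 0.38 (adjusted p among fusions = 0.0126).

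The 3 fusions differed from one another, by the moderated F test, for Hoxa9 (adjusted p = 0.00242), Hoxa6 (0.0366) and Hoxa10 (0.0445). With the replicate number as a block they stood at 0.0185, 0.116 and 0.218, so that Hoxa9 alone passed.

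In 4 of the 87 named genes 1 of the 9 fusion arrays stood far from the rest, where chance flags about 1 in 20 groups. Ccl3 was at 11.414 in minimal fusion replicate 2, with the next fusion array at 12.36. Mcpt1 was at 5.699 and Pfkfb4 at 8.307 in CALM-AF10 ΔOM-LZ replicate 2, with the next arrays at 5.09 and 7.77. Snora30 was at 7.085 in CALM-AF10 ΔOM-LZ replicate 1, with the next array at 7.40. These 9 arrays hold 3 constructs.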

How the results depend on the processing

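The count of called probe sets, 1, was unchanged with median centring, quantile normalization, the dimmest probe sets left out, or a trended robust variance. It was 2 with the fusions as 1 group (Zscan25 was added, adjusted p = 0.022), and 0 with the replicate block (Ankrd37 at an adjusted p of 0.294) or with CALM-AF10, CALM-AF10 ΔOM-LZ or the minimal fusion left out (0.28, 0.149 and 0.552). Leaving out 1 array gave 0 to 9 calls, and Ankrd37 kept its direction in all 21 alternatives. For the difference among fusions the count of 3 became 1, Hoxa9, under the replicate block (adjusted p = 0.0185) or median centring, and ranged from 1 to 4 without 1 array. In a check of the pairing, same-numbered arrays deviated together between CALM-AF10 and CALM-AF10 ΔOM-LZ (r = 0.63 to 0.789), but not in every pair with the minimal fusion (−0.269 to 0.637), and 8 of 9 fusion arrays were closest to their own number in another construct. The non-overlapping counts were 246, 473 and 281 higher and 247, 308 and 225 lower with CALM-AF10, CALM-AF10 ΔOM-LZ or the minimal fusion left out, since fewer arrays must agree. Without 1 array they ranged from 159 to 904 higher and from 126 to 447 lower. Both scalings, the dim filter and averaging a gene's probe sets gave 128 to 191 higher and 114 to 166 lower. Of the medians of the 8 lists discussed, the low-oxygen (−0.597 to −0.407), glycolysis, HOXA, megakaryocyte and leukaemia-linked ones kept their sign under quantile normalization and without any 1 array. Without 1 array the mast cell median ranged from −0.774 to 0.0284, the monocyte one from −0.543 to 0.25 and the stem cell one, near 0, from −0.132 to 0.101; the last was −0.0104 under quantile normalization. Among named genes the sign turned for 4 that lay near 0 or rested on 1 construct: Hoxa10 (−0.053), Thbs1 (0.023) and Cited2 (0.031) without the minimal fusion, and C1qa (−0.013) without MIG replicate 3. Without 1 array Thbs1 ranged from −0.20 to 0.15, and its sign turned without MIG replicate 2. Cited2 ranged from −0.19 to 0.13, and its sign turned without MIG replicate 1 (0.0096), MIG replicate 3, CALM-AF10 replicate 3 (0.026) or CALM-AF10 ΔOM-LZ replicate 3 (0.026). The causes were not tested.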

Other observations

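Mitochondrial ribosomal protein genes were counted after the values were seen. Of 77 measured by symbol, 55 had a mean above MIG, with a median of 0.15, and 4 (Mrpl22, Mrps16, Mrps6 and Mrps18b) stood above MIG in all 9 fusion arrays, while 0 stood below, beside 0.767% and 0.602% of all genes. Their mean by array ran from −0.082 to 0.29 (median −0.033) in fusion arrays and was 0.095, −0.14 and −0.25 in MIG arrays, so that the groups overlapped. With median centring 2 and with quantile normalization 1 of them stayed above MIG, beside 128 and 191 of all genes. NADH dehydrogenase subunits, of the respiratory chain, had 2 of 43 fully higher, and genes with proteasome symbols had 2 fully higher and 2 fully lower of 49, against the same shares of all genes.

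Of 12146 probe sets without a gene symbol, 223 (1.84%) lay above MIG in all 9 fusion arrays and 79 (0.65%) below. The shares were 0.849% and 0.587% of the 21789 probe sets with 1 symbol, and 1.23% and 0.679% of the 1621 with several.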
